A study of Homo sapiens with 4 samples.

Results

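The genes described here are the collagen genes, taken as every feature of the count table whose name is COL, a type number, A and a chain number. The rule found 44 genes among 37450 features. It left out antisense transcripts and pseudogenes with collagen names. Of the 44, 37 had enough reads to be tested, among 20999 tested genes in all. Messenger RNA was sequenced from 143B, an established human osteosarcoma line, in DMEM with serum, 2 days after RNAiMAX transfection. There were 2 libraries given a control siRNA with no target gene (siNC, genotype label WT) and 2 given siRNA against CBX3 (siCBX3), a knockdown in otherwise the same line. CBX3 encodes HP1 gamma, a chromatin protein that binds methylated histone H3. The labels do not say that the libraries came from separate cultures, so the p-values speak to the spread of these libraries alone, and that spread may be technical.

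Collagens are extracellular proteins built from chains that wind around each other as a triple helix. Fibrillar collagens make the banded fibrils of bone, tendon, skin and cartilage. Network-forming collagens make sheets such as the basement membrane, type VI makes beaded filaments around cells, and transmembrane collagens stay anchored in the cell surface. Osteoblasts, the cells that osteosarcoma resembles, are known for laying down a matrix rich in type I collagen.

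The siRNA target was read first as a check of the labels. CBX3 had 20311 and 21384 counts with siNC, against 2020 and 2163 with siCBX3. Its log2 fold change was -3.19 (SE 0.08, n = 2 per group, edgeR adjusted p = 2.73e-20). Total counts ran from 36509298 to 40336907 per library. The Pearson correlation of log2 CPM (counts per 1000000, scaled by library) across genes was 0.991 for libraries of 1 group and 0.957 to 0.961 for libraries of different groups. Of the 7 osteoblast markers, RUNX2 had 167 to 228 counts per library, SPARC 11990 to 63795 and SPP1 388 to 2779. SP7, ALPL and IBSP had 0 to 4 counts. Leukocyte and endothelial markers summed to 1.87 to 2.64 and 1.87 to 2.89 CPM, against 745 to 1518 CPM for the 4 mesenchymal markers. In bulk RNA, fewer cells of a kind and less RNA per cell cannot be told apart.

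Collagen transcripts took a larger share of all counts after CBX3 knockdown. They made up 0.361% and 0.397% of counts with siNC and 1.12% and 1.08% with siCBX3. The 95% Wilson intervals were 0.359% to 0.363%, 0.395% to 0.399%, 1.117% to 1.124% and 1.076% to 1.082%, and they cover counting error only. Summed over the 44 genes, the deposited RPKM (reads per kilobase of exon and per 1000000 reads) was 409 and 449 in siNC and 1195 and 1141 in siCBX3. The groups did not overlap on either scale.

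Gene by gene, 23 of the 37 tested collagen genes were called higher in siCBX3 and 6 lower, at an edgeR adjusted p under 0.05 over all tested genes. Over all 20999 genes tested, 48.4% were called, 24.4% higher and 24.0% lower. Among tested collagen genes the shares were 62.2% higher and 16.2% lower. At least 2-fold rises were called in 16 of the 37 tested collagen genes, against 6.41% of all tested genes. The median log2 fold change of the tested collagen genes was 0.67, and that of all tested genes was -0.01. A gene that passes the filter on low counts only through the group where it is high had to differ, so these counts describe the tested members and not all 44. Among the genes called lower, COL2A1, COL4A4 and COL8A2 passed it only through siNC. In 27 of the 37 genes both siCBX3 libraries lay above both siNC libraries, and in 7 both lay below, against 36.4% and 37.4% of all tested genes. Counts per class and statements below that groups did not overlap are to be read beside these shares.

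Some markers of bone and mesenchymal cells were higher in the same libraries as these collagen genes. Of the 7 osteoblast markers, 3 were called higher (RUNX2, SPARC and SPP1), against 24.4% of all tested genes. RUNX2 was near the threshold (log2 fold change 0.39, edgeR adjusted p = 0.0431). BGLAP, with 16 to 30 counts per library, was not called (adjusted p = 0.318), and SP7, ALPL and IBSP were not tested. The list summed to 373 and 300 CPM with siNC and 1863 and 1763 CPM with siCBX3, of which SPARC alone gave 358 and 285 CPM and then 1782 and 1683 CPM. Of the 4 mesenchymal markers only VIM was called higher, and that list summed to 745 and 847 CPM against 1509 and 1518 CPM. THY1, NT5E and ENG were not called (log2 fold changes -0.66, 0.02 and 0.05). Their part in the collagen values was not tested.

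**Figure D1:**
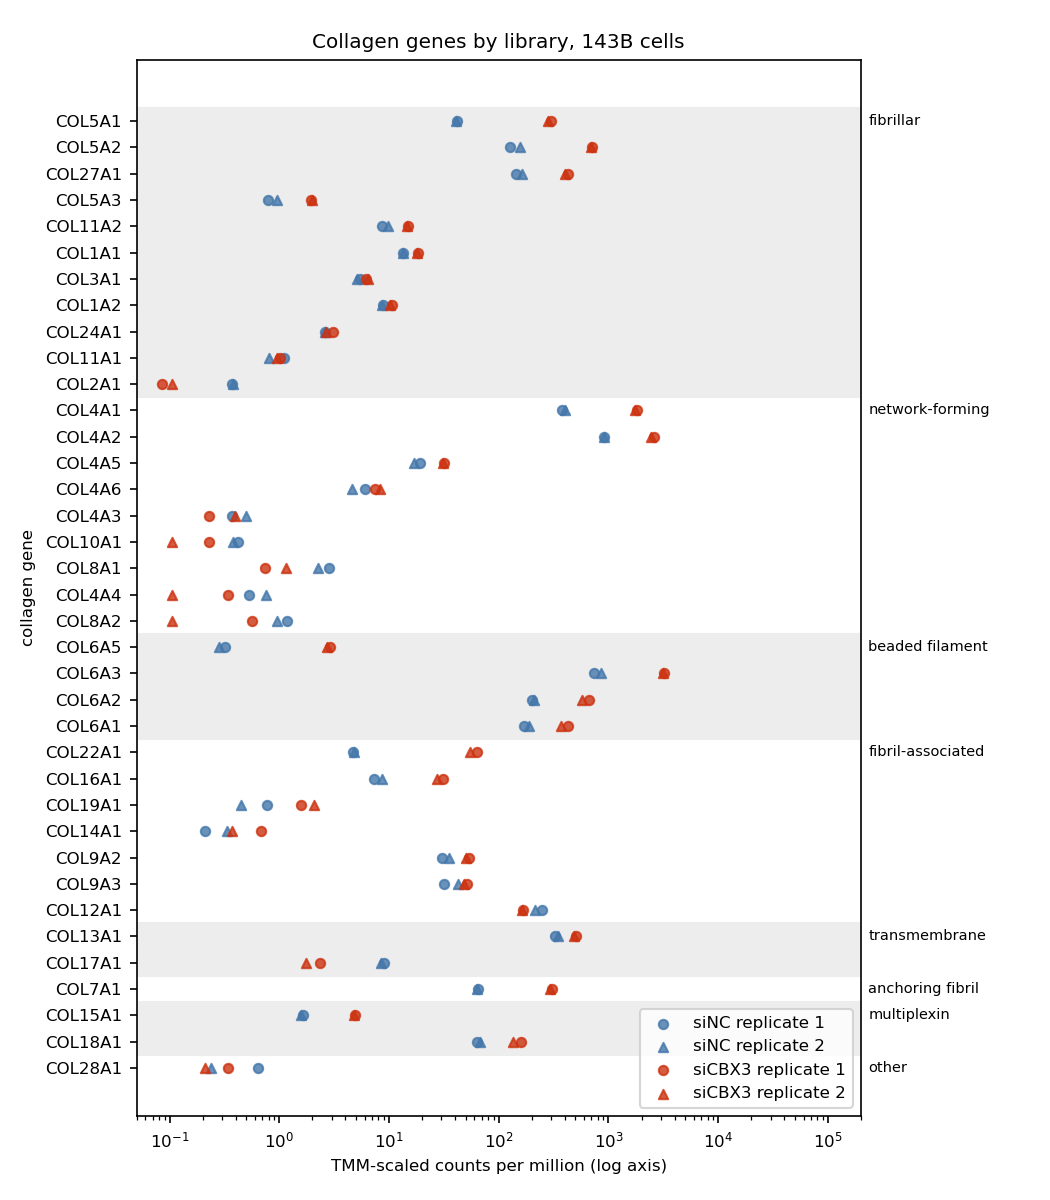
TMM-scaled CPM (log axis) of the 37 tested collagen genes in each of the 4 libraries, grouped by structural class. Circles and triangles are replicates 1 and 2, and in 27 genes both red siCBX3 points lie to the right of both blue siNC points (36.4% of all tested genes).

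The other 7 collagen genes were near the lower limit of detection and had 0 to 8 counts in every library: COL6A6, COL9A1, COL20A1, COL21A1, COL23A1, COL25A1 and COL26A1. No fold change is given for them. No collagen gene was without counts in all libraries.

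RefSeq start sites were used to show what lies upstream of the collagen genes whose levels moved furthest. A window from 250 bases before to 50 bases after the start (RefSeq, GRCh38.p14) was found for 32 of the 44 genes, with 44 windows in all. The 5 printed here belong to the 3 largest rises and the 2 falls among called genes that have a window and average 100 counts or more in their higher group. Each runs 5′ to 3′ on the gene's strand, and capitals mark GGGCGG (the GC box), CCAAT (the CCAAT box) or TATAAA (the TATA box) on either strand.
COL5A1: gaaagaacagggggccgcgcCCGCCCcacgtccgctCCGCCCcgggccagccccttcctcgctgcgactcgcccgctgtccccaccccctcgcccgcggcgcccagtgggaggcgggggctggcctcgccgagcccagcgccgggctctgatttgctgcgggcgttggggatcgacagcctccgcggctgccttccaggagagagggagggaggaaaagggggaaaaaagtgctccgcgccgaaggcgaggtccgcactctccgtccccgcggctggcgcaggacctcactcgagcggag
COL7A1: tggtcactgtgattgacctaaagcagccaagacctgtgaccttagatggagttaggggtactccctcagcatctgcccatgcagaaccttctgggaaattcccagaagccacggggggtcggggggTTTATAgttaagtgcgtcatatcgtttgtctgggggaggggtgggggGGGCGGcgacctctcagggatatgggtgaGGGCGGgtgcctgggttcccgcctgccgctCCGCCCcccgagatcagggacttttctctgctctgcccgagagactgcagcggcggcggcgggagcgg
COL4A1: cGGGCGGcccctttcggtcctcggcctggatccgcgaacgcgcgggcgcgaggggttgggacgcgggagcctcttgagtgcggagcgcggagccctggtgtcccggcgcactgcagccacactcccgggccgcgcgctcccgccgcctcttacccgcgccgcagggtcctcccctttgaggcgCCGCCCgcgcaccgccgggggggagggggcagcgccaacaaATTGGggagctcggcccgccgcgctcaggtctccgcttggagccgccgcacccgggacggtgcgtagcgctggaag
COL17A1: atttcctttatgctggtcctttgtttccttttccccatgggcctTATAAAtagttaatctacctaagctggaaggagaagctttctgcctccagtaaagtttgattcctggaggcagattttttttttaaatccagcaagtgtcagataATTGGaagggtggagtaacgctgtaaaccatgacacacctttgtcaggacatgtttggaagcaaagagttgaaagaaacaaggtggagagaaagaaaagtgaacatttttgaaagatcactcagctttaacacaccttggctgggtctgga
COL12A1: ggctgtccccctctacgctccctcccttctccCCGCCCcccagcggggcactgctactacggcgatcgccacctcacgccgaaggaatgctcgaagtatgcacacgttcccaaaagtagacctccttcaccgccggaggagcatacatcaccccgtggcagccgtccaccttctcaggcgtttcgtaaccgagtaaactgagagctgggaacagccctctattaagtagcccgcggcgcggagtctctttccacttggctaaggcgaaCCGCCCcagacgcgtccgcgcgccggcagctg
The windows lie at chr9:134641553-134641852 (COL5A1, plus strand), chr3:48595280-48595579 (COL7A1, minus), chr13:110307108-110307407 (COL4A1, minus), chr10:104085831-104086130 (COL17A1, minus) and chr6:75206004-75206303 (COL12A1, minus).
The 3 windows of genes that rose held 36 (COL5A1), 17 (COL7A1) and 45 (COL4A1) CG pairs. The windows of the genes that fell held 1 (COL17A1) and 29 (COL12A1). The COL17A1 window had no GC box and a GC content of 40.7%, against 63.3% for COL12A1, which had 2 GC boxes. Windows of both kinds were thus found among the genes that fell.

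Across the 44 collagen windows, GGGCGG was found in 54.5%, against 45.0% of all 35116 windows in the RefSeq table. CCAAT was found in 31.8% of collagen windows and 34.6% of all windows, and TATAAA in 18.2% and 11.5%. TGACTCA, the letters of the AP-1 site, was in 0 of the 44 collagen windows and in 4.95% of all windows. Motifs were searched on both strands, and several windows can belong to 1 gene. The median number of CG pairs was 17 in collagen windows and 14 in all windows. A match describes the letters in the window and is no evidence of binding.

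Among the 11 fibrillar collagens, 6 were called higher, 1 lower and 4 were not called, with a median log2 fold change of 0.44. Over all tested genes, 24.4% were called higher and 24.0% lower. The rises were led by type V collagen, a minor fibrillar collagen that sits inside type I fibrils and helps set their width. COL5A1 (chr9:134641774-134844843, GRCh38) stood at 42.0 and 40.8 CPM in siNC and at 301 and 279 CPM in siCBX3. Its level was 7.01-fold higher, with a log2 fold change of 2.81 (SE 0.08, edgeR adjusted p = 5.47e-19). COL5A2, the second chain of the common type V trimer, stood at 127 and 157 CPM in siNC and at 704 and 686 CPM in siCBX3. It was 4.91-fold higher (log2 fold change 2.29, SE 0.09, adjusted p = 1.72e-16). Neither chain overlapped between groups. COL5A3, a less common chain, had 30 and 40 counts in siNC against 69 and 76 in siCBX3, a log2 fold change of 1.18 (SE 0.29, adjusted p = 0.00152).

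COL27A1, a fibrillar collagen known from cartilage, had 144 and 162 CPM in siNC and 431 and 404 CPM in siCBX3. That was a 2.73-fold rise (log2 fold change 1.45, SE 0.08, adjusted p = 1.21e-13). COL11A2, a chain of cartilage type XI collagen, went from 8.57 and 9.87 CPM to 14.8 and 14.5 CPM, a log2 fold change of 0.67 (SE 0.12, adjusted p = 5.02e-05). Groups did not overlap for either gene. COL11A1, its partner chain, had 34 to 42 counts in every library and was not called.

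The major collagens of bone moved little beside type V. COL1A1, the main chain of type I collagen, had 13.5 and 13.4 CPM in siNC and 18.3 and 18.2 CPM in siCBX3. That was 1.35-fold higher (log2 fold change 0.44, SE 0.10, adjusted p = 0.00121), and on the log2(RPKM + 1) scale the call was lost (adjusted p = 0.0787). COL1A2, the second type I chain, had 8.86 and 8.69 CPM in siNC and 10.6 and 10.1 in siCBX3. Its log2 fold change was 0.24 (SE 0.12, adjusted p = 0.113). COL3A1, the type III chain that accompanies type I in many tissues, had a log2 fold change of 0.25 (SE 0.15, adjusted p = 0.18). For both genes the siCBX3 libraries lay above the siNC libraries without passing the threshold. COL24A1, a fibrillar collagen of developing bone, had 99 to 110 counts per library and was not called either.

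COL2A1, the main collagen of cartilage, was the only fibrillar collagen called lower. It had 14 and 16 counts in siNC against 3 and 4 in siCBX3. That gave a log2 fold change of -1.94 (SE 0.69, adjusted p = 0.0225), and the call was lost when any 1 of the 4 libraries was left out (adjusted p from 0.119 to 0.18). Of the 5 chondrocyte markers, 4 were called lower, against 24.0% of all tested genes: ACAN (-1.92), COMP (-1.91), MATN3 (-0.91) and LECT1 (-2.02). ACAN had 28 and 22 counts in siNC against 4 and 8 in siCBX3, and LECT1 had 20 and 16 against 2 and 6. ACAN, LECT1 and COL2A1 passed the filter on low counts only through siNC, so they had to differ. SOX9 held most of the list's summed level, which was 56.1 and 64.3 CPM in siNC and 65.8 and 62.5 CPM in siCBX3. Their part in the COL2A1 value was not tested.

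**Figure D2:**
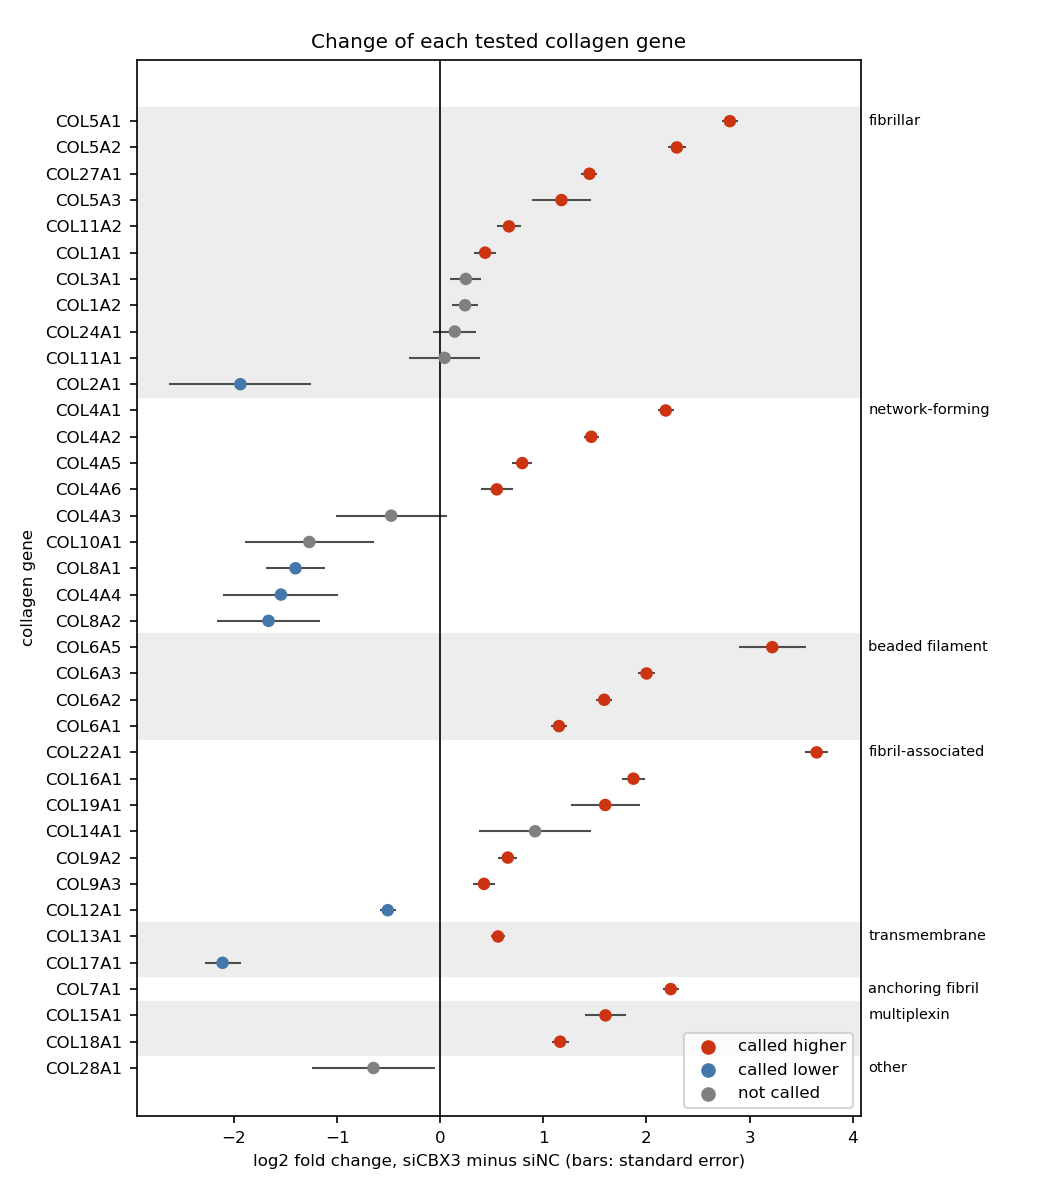
Log2 fold change of each tested collagen gene, siCBX3 minus siNC, with bars of 1 standard error and colour for the call. Type IV, V and VI chains with high counts lie to the right of 0, and COL17A1 (-2.11) lies furthest to the left.

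Network-forming collagens moved in both directions. Of 9 tested, 4 were called higher and 3 lower, against 24.4% and 24.0% of all tested genes, and 2 were not called. The median log2 fold change, -0.48, was the value of COL4A3, which had 8 to 21 counts and was not called. The rises were in type IV collagen, the scaffold of basement membranes. COL4A1 (chr13:110148963-110307149) had 377 and 405 CPM in siNC and 1803 and 1757 CPM in siCBX3. It was 4.55-fold higher (log2 fold change 2.19, SE 0.08, adjusted p = 2.83e-17). COL4A2 (chr13:110305812-110513027) had 911 and 917 CPM in siNC and 2608 and 2437 CPM in siCBX3, 2.76-fold higher (log2 fold change 1.46, SE 0.08, adjusted p = 5.28e-14). Neither gene overlapped between groups. The chains of both genes join in the most widespread type IV trimer.

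The 6 type IV genes sit as 3 head-to-head pairs. In the annotation used for counting, the gap between COL4A1 and COL4A2 was -1338 bases, so their spans overlapped, though COL4A1 shared no exon bases. By RefSeq starts, each pair is transcribed away from a short stretch between its start sites. In RefSeq the starts of COL4A1 and COL4A2 are 127 bases apart, those of COL4A6 and COL4A5 380 bases apart and those of COL4A4 and COL4A3 419 bases apart. On the X chromosome, COL4A5 had 19.3 and 16.9 CPM in siNC and 31.5 and 31.3 CPM in siCBX3, a log2 fold change of 0.80 (SE 0.10, adjusted p = 2.28e-07). Its neighbour COL4A6, a chain of smooth muscle and some epithelial basement membranes, had 6.10 and 4.61 CPM in siNC and 7.38 and 8.23 CPM in siCBX3. Its log2 fold change was 0.55 (SE 0.16, adjusted p = 0.00523), which fell to 0.36 (adjusted p = 0.0851) without siNC replicate 2. On the log2(RPKM + 1) scale it was 0.19 (adjusted p = 0.103).

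The pair on chromosome 2 encodes chains of specialised membranes such as that of the kidney glomerulus and was near the limit of detection. COL4A3 had 8 to 21 counts per library and was not called. COL4A4 passed the filter on low counts only through siNC, where it is high. It had 20 and 32 counts in siNC against 12 and 4 in siCBX3, with a log2 fold change of -1.55 (SE 0.56, adjusted p = 0.0245). Without siNC replicate 2 its log2 fold change was -1.25 (adjusted p = 0.213), and without siCBX3 replicate 2 it was -0.92 (adjusted p = 0.282). Without siCBX3 replicate 1 it was -2.58 (adjusted p = 0.00988). Of the 3 pairs, then, both members rose in the 2 pairs with more counts, and neither rose in the pair with few counts.

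The other network-forming collagens, type VIII of vessel walls and cornea and type X of growth-plate cartilage, had low counts. COL8A1 had 107 and 94 counts in siNC against 26 and 44 in siCBX3, a log2 fold change of -1.40 (SE 0.28, adjusted p = 0.000208) with no overlap. In CPM this was 2.84 and 2.23 against 0.738 and 1.16. COL8A2, its partner chain, passed the filter on low counts only through siNC, where it is high. It had 44 and 40 counts in siNC against 20 and 4 in siCBX3 (log2 fold change -1.67, SE 0.50, adjusted p = 0.0078). Without siCBX3 replicate 2 the value was -0.89 (adjusted p = 0.146), and without siCBX3 replicate 1 it was -3.29 (adjusted p = 3.74e-05). COL10A1, with 16 and 16 counts against 8 and 4, was not called (adjusted p = 0.0966).

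All 4 tested beaded-filament collagens were called higher, against 24.4% of all tested genes, with a median log2 fold change of 1.80. COL6A3 (chr2:237324003-237414375), the longest chain of type VI collagen, had 736 and 855 CPM in siNC and 3228 and 3139.6 CPM in siCBX3. That was a 4.0-fold rise (log2 fold change 2.00, SE 0.08, adjusted p = 7.08e-16). COL6A2 had 199 and 212 CPM in siNC and 661 and 577 CPM in siCBX3, 3.01-fold higher (log2 fold change 1.59, SE 0.08, adjusted p = 3.22e-14). COL6A1 had 171 and 189 CPM in siNC and 426 and 373 CPM in siCBX3, 2.22-fold higher (log2 fold change 1.15, SE 0.08, adjusted p = 1.71e-11). For all 3 chains, which assemble into 1 monomer, the groups did not overlap. COL6A1 (chr21:45981737-46005050) and COL6A2 (chr21:46098097-46132849) lie in tandem, 93046 bases apart. COL6A5, an alternative to the COL6A3 chain, had 12 and 12 counts in siNC against 103 and 104 in siCBX3 (log2 fold change 3.22, SE 0.32, adjusted p = 1.25e-08). Its tandem neighbour COL6A6 had 3 to 8 counts and was not tested.

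Of the 4 transmembrane collagens, 1 rose, 1 fell and 2 were not tested. COL13A1, known from focal adhesions and the neuromuscular junction, had 328 and 345 CPM in siNC and 505 and 488 CPM in siCBX3. The rise was 1.47-fold (log2 fold change 0.56, SE 0.07, adjusted p = 6.6e-07), with no overlap. COL17A1 (chr10:104031286-104086002), the hemidesmosome collagen that ties epithelial cells to the basement membrane, had 9.02 and 8.52 CPM in siNC and 2.33 and 1.74 CPM in siCBX3. In counts this was 340 and 359 against 82 and 66. It was 4.31-fold lower (log2 fold change -2.11, SE 0.18, adjusted p = 4.2e-10), again with no overlap.

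Of the 7 epithelial markers on the list, 3 were called lower, as COL17A1 was: EPCAM (log2 fold change -0.51), KRT8 (-0.72) and KRT18 (-0.70). Of all tested genes, 24.0% were called lower. The summed level of the list was 1293 and 1289 CPM in siNC and 785 and 798 CPM in siCBX3, and KRT8 and KRT18 gave nearly all of it. CDH1, KRT5 and KRT14 had 0 to 8 counts in any library and were not tested, and CLDN4 was not called. Their part in the COL17A1 value was not tested.

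The fibril-associated collagens bind the surface of fibrils rather than forming them. Of 10 listed, 7 were tested, of which 5 rose and 1 fell, against 24.4% and 24.0% of all tested genes, and 1 was not called. The median log2 fold change, 0.92, was the value of COL14A1, the gene not called, which had 8 to 24 counts. COL22A1, a collagen of tissue junctions such as that of muscle and tendon, had the largest fold change of any tested collagen gene. It had 4.67 and 4.75 CPM in siNC (176 and 200 counts) and 64.0 and 54.4 CPM in siCBX3 (2255 and 2063 counts). That was 12.6-fold higher (log2 fold change 3.65, SE 0.11, adjusted p = 2.09e-18). COL16A1, found with small fibrils and fibrillin, went from 7.25 and 8.64 CPM to 31.1 and 27.3 CPM (log2 fold change 1.87, SE 0.11, adjusted p = 1.27e-12). Neither gene overlapped between groups.

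The type IX chains, which decorate cartilage fibrils, rose by less. COL9A2 had 30.2 and 35.5 CPM in siNC and 53.5 and 50.1 CPM in siCBX3, a log2 fold change of 0.66 (SE 0.09, adjusted p = 1.65e-06). COL9A3 had 31.4 and 42.1 CPM in siNC and 51.0 and 47.9 CPM in siCBX3, a log2 fold change of 0.42 (SE 0.10, adjusted p = 0.00135). The groups did not overlap for either chain, but COL9A3 was not called on the log2(RPKM + 1) scale (adjusted p = 0.127). COL19A1, with 19 to 79 counts, had a log2 fold change of 1.60 (SE 0.34, adjusted p = 0.000334). COL14A1, with 8 to 24 counts, was not called (adjusted p = 0.169).

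COL12A1 (chr6:75084326-75206051), a large collagen of tendon, ligament and bone surface, went against its class. It had 250 and 216 CPM in siNC and 165 and 162 CPM in siCBX3. The level was 1.42-fold lower (log2 fold change -0.51, SE 0.08, adjusted p = 7.34e-06), with no overlap. Among the 6 collagen genes called lower, it had the highest counts, 5817 to 9411 per library, and COL17A1 came next with 66 to 359.

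The single anchoring-fibril collagen rose. COL7A1 (chr3:48564073-48595267), whose fibrils fasten the skin's basement membrane to the dermis, had 64.8 and 63.0 CPM in siNC and 307 and 294 CPM in siCBX3. It was 4.71-fold higher (log2 fold change 2.24, SE 0.08, adjusted p = 1.61e-17), without overlap. Both multiplexins, basement-membrane collagens that carry sugar chains and hold an endostatin-like end, rose as well. COL18A1 had 63.7 and 68.0 CPM in siNC and 159 and 136 CPM in siCBX3, a log2 fold change of 1.16 (SE 0.08, adjusted p = 2.62e-11). COL15A1 had 62 and 66 counts in siNC against 174 and 183 in siCBX3 (1.65 and 1.57 CPM against 4.94 and 4.83). Its log2 fold change was 1.60 (SE 0.20, adjusted p = 4.44e-07). COL28A1, outside the other classes, had 8 to 24 counts and was not called.

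Of the COL18A1 exon bases, 16.4% are shared with SLC19A1 on the opposite strand. The library kit keeps strand, per the labels, but whether strand was used in counting is not given in the sources used here, so reads of these genes may not be separated. SLC19A1 had 1343 and 1567 counts in siNC against 2137 and 1943 in siCBX3. For the other members at most 4.0% of exon bases were shared, and COL4A1, COL5A1, COL5A2, COL6A1, COL6A2, COL6A3, COL7A1 and COL22A1 shared none.

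Levels were compared between genes only per length, as deposited RPKM. In siNC the highest mean values were those of COL4A2 (108), COL13A1 (60.0), COL4A1 (49.0), COL6A3 (41.7), COL6A2 (39.2) and COL6A1 (34.6). In siCBX3 they were those of COL4A2 (282), COL4A1 (211), COL6A3 (158), COL6A2 (112), COL5A2 (94.4) and COL13A1 (83.8). COL13A1 thus stood second in siNC and sixth in siCBX3, although its own level rose. In siNC the ranges of COL6A3 (37.9 to 45.5) and COL6A2 (37.4 to 41.0) overlapped. COL1A1 and COL1A2 had mean RPKM of 1.41 and 0.808 in siNC, below COL4A1, COL4A2 and the 3 main type VI chains.

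By class, network-forming collagens held the largest part of collagen RPKM, 38.1% and 36.7% in siNC and 42.4% and 42.8% in siCBX3. Beaded-filament collagens held 26.3% and 27.5%, then 29.7% and 28.9%. Fibrillar collagens held 9.03% and 9.79%, then 13.2% and 13.4%. The transmembrane share was lower in siCBX3, at 7.11% and 7.29% against 14.4% and 14.3%. The fibril-associated share was also lower, at 3.92% and 3.88% against 8.72% and 8.44%. In absolute terms the summed RPKM of both rose, from 58.9 and 64.0 to 84.9 and 83.3 for the transmembrane class and from 35.6 and 37.8 to 46.8 and 44.2 for the fibril-associated class. With 2 libraries against 2, an exact two-sided permutation test cannot give a p below 0.3333, so these sums carry no test.

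**Figure D3:**
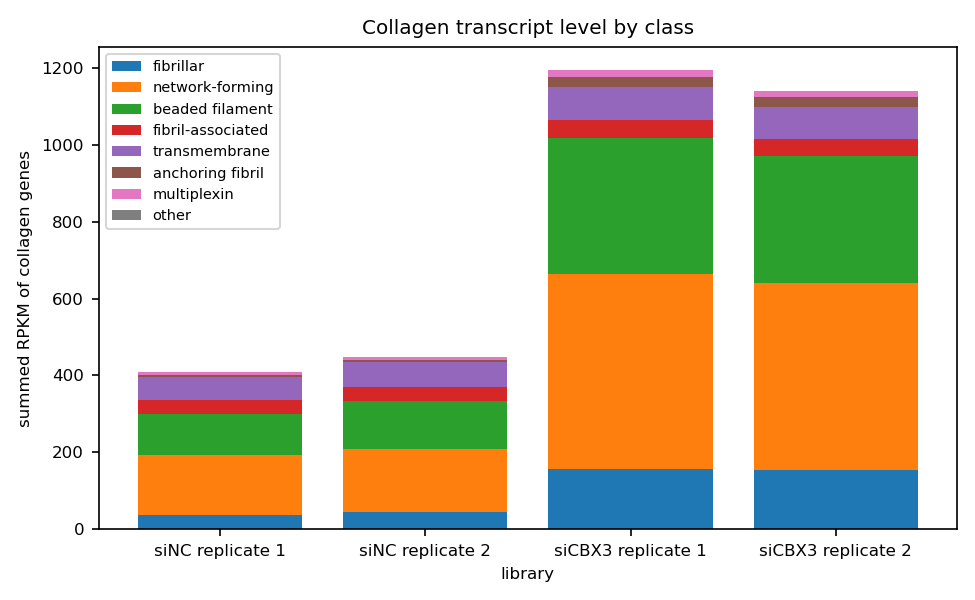
Summed deposited RPKM of each collagen class in each of the 4 libraries. The network-forming class is highest in every library, at 156 and 165 in siNC and 506 and 489 in siCBX3.

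Chains of 1 collagen type were also set against each other within each library, as a ratio of RPKM values that does not depend on how libraries are scaled. COL4A1 per COL4A2 was 0.440 and 0.469 in siNC and 0.735 and 0.766 in siCBX3. COL4A2 therefore stayed the higher of the pair, with COL4A1 nearer to it after knockdown. COL6A3 per COL6A1 was 1.17 and 1.23 in siNC and 2.06 and 2.29 in siCBX3, and COL6A1 per COL6A2 was 0.863 and 0.900 in siNC and 0.650 and 0.651 in siCBX3. COL5A1 per COL5A2 was 0.212 and 0.167 in siNC and 0.274 and 0.260 in siCBX3. In these 4 ratios the groups did not overlap.

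For type I collagen, COL1A1 per COL1A2 was 1.73 and 1.76 in siNC and 1.96 and 2.04 in siCBX3. The ratio of COL4A5 to COL4A6 was 3.35 and 3.90 in siNC and 4.54 and 4.03 in siCBX3, and that of COL9A2 to COL9A3 was 1.12 and 0.982 against 1.22 and 1.22. In these pairs too the groups did not overlap. COL8A1 per COL8A2 rested on as few as 4 counts and COL11A1 per COL11A2 on as few as 34, and neither ratio is read. As for the class sums, the smallest p this design allows is 0.3333 and no test was made.

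**Figure D4:**
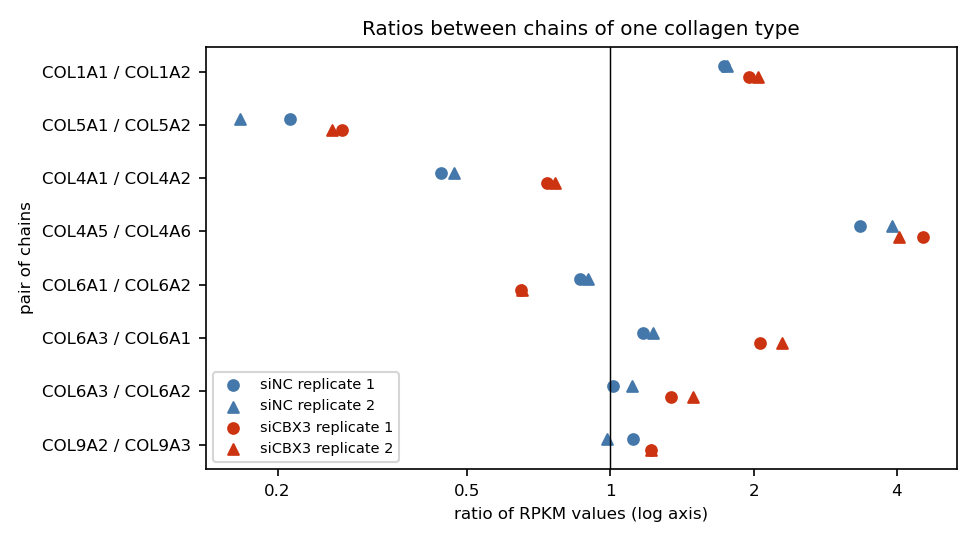
Ratio of deposited RPKM values (log axis) between chains of 1 collagen type, with circles for replicate 1 and triangles for replicate 2. The COL4A1 to COL4A2 ratio lies at 0.440 and 0.469 in siNC and at 0.735 and 0.766 in siCBX3, and the vertical line marks equal RPKM.

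Collagen chains need enzymes and chaperones before they can leave the cell, and other proteins trim, crosslink and bind them outside. Of 50 such partner genes, 45 were tested, with 26 called higher (57.8%), 11 lower (24.4%) and 8 not called. Among those called lower, TLL1, LOXL4 and PRELP passed the filter on low counts only through siNC, where they are high. Of all tested genes 24.4% were called higher and 24.0% lower, so the share of partner genes called lower was near that of all genes. The median log2 fold change was 0.36. At least 2-fold rises were called in 3 of the 45 tested partner genes, a share near the 6.41% of all tested genes. Among the 37 tested collagen genes there were 16 such rises.

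Calls among genes acting inside the cell were mostly higher, with small factors. Of 10 genes of prolyl hydroxylation, which stabilises the helix, 7 rose and 1 fell, against 24.4% and 24.0% of all tested genes. CRTAP, a subunit of the prolyl 3-hydroxylase complex, had 253 and 270 CPM in siNC and 460.0 and 443 in siCBX3 (log2 fold change 0.79, SE 0.07, adjusted p = 3.02e-09). P4HA2 and P4HB, subunits of prolyl 4-hydroxylase, had log2 fold changes of 0.66 and 0.58. P4HB shares 9.975% of its exon bases with a feature on the opposite strand. P3H2, a prolyl 3-hydroxylase, was the one that fell, with a log2 fold change of -0.49 (adjusted p = 0.00101). Of 6 genes of lysyl hydroxylation and glycosylation, 5 rose and none fell, with the lysyl hydroxylases PLOD1 and PLOD2 at 0.56 and 0.51. COLGALT1, which adds galactose to hydroxylysine, had 0.30, or 0.24 (adjusted p = 0.0794) without siCBX3 replicate 1.

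Of 8 genes of folding and export, 5 rose and 1 fell, against 24.4% and 24.0% of all tested genes. SERPINH1, the collagen chaperone HSP47, had 50.4 and 47.9 CPM in siNC and 88.3 and 80.5 CPM in siCBX3, 1.72-fold higher (log2 fold change 0.78, SE 0.08, adjusted p = 1.98e-08). SEC23A, a coat protein of export vesicles, had a log2 fold change of 0.36. KLHL12, a ubiquitin ligase adaptor linked to large collagen carriers, fell by 0.65 on the log2 scale (SE 0.11, adjusted p = 1.57e-05). In each of these genes the groups did not overlap.

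Outside the cell the directions were mixed. Of 8 genes of propeptide removal, which lets fibrils form, 2 rose and 5 fell, against 24.4% and 24.0% of all tested genes. Of those that fell, TLL1 had 24 and 27 counts in siNC against 6 and 4 in siCBX3. TLL1 passed the filter on low counts only through siNC, so it had to differ. BMP1, the main C-propeptide protease, had 30.5 and 31.5 CPM in siNC and 62.4 and 54.7 CPM in siCBX3 (log2 fold change 0.92, SE 0.09, adjusted p = 4.58e-09). Its relative TLL2 had 92 and 99 counts in siNC against 29 and 18 in siCBX3, a log2 fold change of -1.89 (SE 0.31, adjusted p = 1.61e-05). ADAMTS3, an N-propeptide protease, had 98 and 112 counts against 32 and 46 (log2 fold change -1.30, SE 0.26, adjusted p = 0.000193).

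Of 6 crosslinking genes, 3 rose and 3 fell, against 24.4% and 24.0% of all tested genes. Of those that fell, LOXL4 had 12 and 16 counts in siNC against 2 and 4 in siCBX3. LOXL4 passed the filter on low counts only through siNC, so it had to differ. The lysyl oxidase relatives LOXL3 and LOXL1 had log2 fold changes of -0.80 and -0.69, and LOX itself had 0.36 (adjusted p = 0.0141). PXDN, the peroxidase that crosslinks type IV collagen, had 157 and 130.1 CPM in siNC and 208 and 192 CPM in siCBX3 (log2 fold change 0.48, SE 0.08, adjusted p = 3.69e-05). LOXL3 shares 19.3% of its exon bases with neighbouring genes and LOXL1 9.21%.

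Of 7 small proteoglycans that bind fibrils, 4 were tested, 1 rose and 1 fell. The gene that fell, PRELP, passed the filter on low counts only through siNC, where it is high. BGN (biglycan) had 11.4 and 11.9 CPM in siNC and 20.9 and 20.4 CPM in siCBX3, a log2 fold change of 0.83 (SE 0.10, adjusted p = 4.6e-07). PRELP had 44 and 20 counts against 4 and 17 (log2 fold change -1.50, adjusted p = 0.028), and without siNC replicate 1 the value was -0.73 (adjusted p = 0.48). It was -0.85 (adjusted p = 0.247) without siCBX3 replicate 1 and -2.80 (adjusted p = 0.00185) without siCBX3 replicate 2. LUM, with 6 to 20 counts, was not called.

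All 3 tested genes of collagen sensing and uptake rose, against 24.4% of all tested genes. DDR1, a receptor tyrosine kinase that binds collagen, had 18.4 and 18.6 CPM in siNC and 71.3 and 67.3 CPM in siCBX3. That was 3.74-fold higher (log2 fold change 1.90, SE 0.09, adjusted p = 5.04e-15). DDR2, its relative that prefers fibrillar collagen, had 118 and 138 CPM against 192 and 188 (log2 fold change 0.57, SE 0.08, adjusted p = 2.12e-06). MRC2, which takes up collagen fragments, had 66.8 and 62.7 CPM against 150 and 137 (log2 fold change 1.15, SE 0.08, adjusted p = 1.24e-11). It shares 12.6% of its exon bases with features on the opposite strand, whose reads may not be separated. GP6 and LAIR1, receptors of platelets and leukocytes, had 0 to 8 counts and were not tested.

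**Figure D5:**
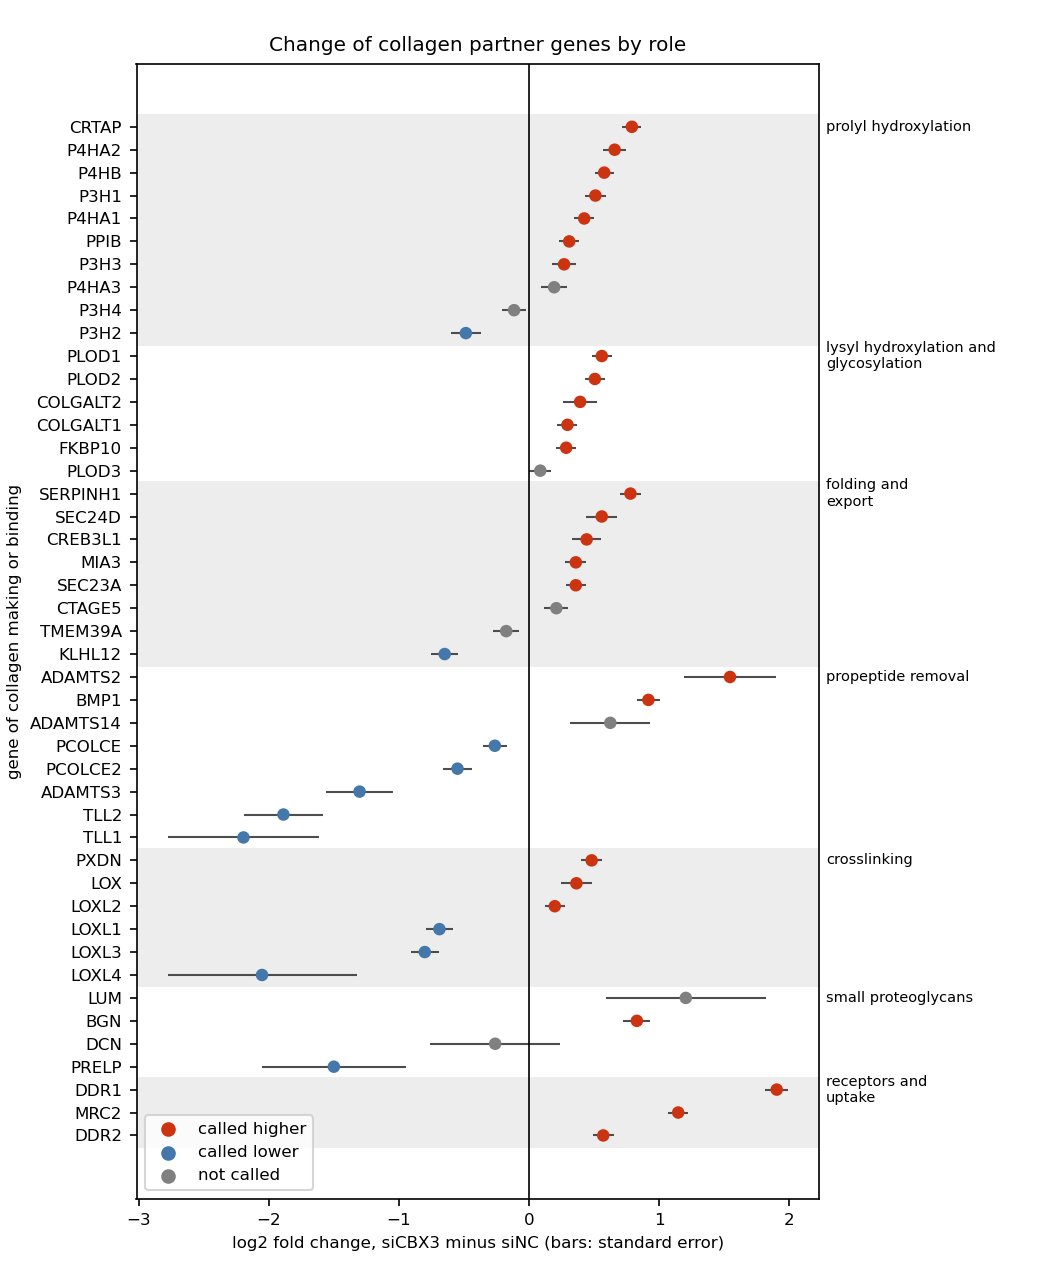
Log2 fold change of each tested partner gene, siCBX3 minus siNC, with bars of 1 standard error, grouped by role and coloured by call. The genes of hydroxylation and glycosylation lie between -0.49 and 0.79, while propeptide removal runs from -2.20 to 1.54.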

How the data were processed

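Stranded mRNA libraries of 143B cells, 2 siNC and 2 siCBX3, were analysed from tables the authors deposited. Per the file headers, the deposited tables give a raw read count per gene and an RPKM value per gene for each library. The deposited RPKM equals the deposited count scaled by gene length and library total within a relative difference of 3.79e-07. The submitters' processing notes name Trimmomatic 0.36, STAR 2.5.3a, Subread 1.5.1 with featureCounts, and GRCh38. Their settings, including strand, and the annotation release are not given in the sources used here. Between 74.3% and 75.6% of counts from 1 to 20 were even, against 54.9% to 56.2% above 20. Whether both reads of a pair were counted is not given. If both were, counts exceed sequenced fragments and the Wilson intervals are too narrow.

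Counts were tested with edgeR 4.0.16 in R 4.3.3 by the quasi-likelihood test with group as the only term. The filterByExpr step (minimum count 10, minimum total 15) removed low genes, TMM factors scaled the libraries, and p-values were adjusted by Benjamini-Hochberg over all tested genes. A gene is called at an adjusted p under 0.05. CPM values are TMM-scaled, log2 CPM for correlations used a prior count of 2, and SE was obtained by dividing the log2 fold change by the square root of F. There were 2 residual and 22.0 prior degrees of freedom. The siCBX3 to siNC contrast is the only one.

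The collagen genes, classes, partner list and marker lists were chosen with earlier results of these data known. List counts are therefore descriptions beside the share of all genes called. Per-library values were given for called collagen genes averaging 100 counts or more in their higher group and for chains of the same trimer, and for up to 3 partner genes per role with the smallest adjusted p. Values of P3H2 and LOX, low-count collagens and single marker genes were added after they were seen.

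Alternatives were DESeq2 1.42.0 (size factors and Wald test), library totals, upper-quartile scaling, other filters, limma 3.58.1 (voom, and log2 RPKM with pseudocounts of 1 and 0.1), leaving out each library, and a replicate block. Halved counts were added after seeing the data. The edgeR step was tested on simulated data. Promoter windows came from RefSeq (GRCh38.p14). Summaries used numpy 2.4.6 and pandas 2.3.3 in Python 3.11.15, intervals scipy 1.17.1 and plots matplotlib 3.10.9. Intervals cover counting error only, and reads counted without molecular identifiers are not separate molecules.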

Additional observations from a re-analysis of the deposited data

How the results depend on the processing

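Of the 37 tested collagen genes, 29 kept their direction and their side of the threshold under every one of the 15 alternatives that tested them, including 20 of the 23 called higher. The count of collagen genes called higher was 20 to 23 over all alternatives, and 22 to 23 when 1 library was left out. The count called lower, 6, was 3 under a mean count of at least 50 (fewer genes tested), 3 with the DESeq2 Wald test, and 3 to 5 with 1 library left out, the lowest without siCBX3 replicate 2. COL2A1, COL4A4 and COL8A2 were the members lost with DESeq2 (adjusted p = 0.161, 0.152 and 0.061). COL11A1, not called at 0.04, reversed to -0.036 with library totals, to -0.0043 with upper-quartile scaling, to -0.0039 on log2(RPKM + 1) and -0.017 on log2(RPKM + 0.1). With 1 library left out it ran from -0.18 (without siNC replicate 2) to 0.29, and it was -0.01 without siCBX3 replicate 1. COL28A1, not called at -0.65, ran from -1.20 to 0.21 with 1 library left out, positive without siNC replicate 1, and COL10A1, not called at -1.27, was -1.90 without siCBX3 replicate 1. The causes were not tested. With a replicate block the counts were again 23 higher and 6 lower. Deviations of same-numbered libraries correlated at 0.0287 over all tested genes. That value cannot show whether same-numbered libraries shared a culture, a transfection or a sequencing batch. Over the alternatives the median of all genes ranged from -0.0854 to 0.0024. With 1 library left out, the lone sample is assumed to vary like the others. Depth limits the 7 untested genes and the fold changes of genes under about 100 counts.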

Other observations

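Genes with collagen-like stretches but no collagen name, a list drawn up after the data had been seen, held calls in both directions. Of 36 present, 21 were tested, 11 (52.4%) were called higher and 5 (23.8%) lower by edgeR, against 24.4% and 24.0% of all tested genes. The median log2 fold change was 0.39. CTHRC1, a secreted protein with a short collagen repeat, had 61.0 and 68.6 CPM in siNC and 221 and 216 CPM in siCBX3 (log2 fold change 1.76, SE 0.08, adjusted p = 4.17e-15). The elastic-fibre glycoproteins EMILIN2 and EMILIN1 had log2 fold changes of 1.62 and 0.84, and the scavenger receptor COLEC12 had 1.08. SCARA5 had 4 and 8 counts in siNC against 48 and 56 in siCBX3 (log2 fold change 3.22, SE 0.47). It passed the filter on low counts only through siCBX3, so it had to differ, although it is among the 11 called higher. The 5 called lower were C1QL1 (-1.54), C1QL4 (-1.54), CCBE1 (-1.44), C1QTNF1 (-1.31) and EDA (-0.52).

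Features with a collagen name outside the rule were few and mostly near 0. The antisense transcripts COL4A2-AS1 and COL4A2-AS2 share 0.93% and 0.161% of the COL4A2 exon bases. COL4A2-AS1 had 248 and 345 counts in siNC against 760 and 710 in siCBX3 (log2 fold change 1.44, SE 0.12). COL4A2-AS2 had 505 and 630 counts against 1445 and 1479 (log2 fold change 1.49, SE 0.10). COL4A2 itself had 1.46, and without known strand use in counting these transcripts and COL4A2 may not be separated. The pseudogene COL6A4P2 had 33 and 52 counts against 23 and 25 and was not called (adjusted p = 0.13). COL18A1-AS1, COL18A1-AS2, COL5A1-AS1 and COL6A4P1 had 0 to 6 counts.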
